A study of Macaca mulatta with 20 samples.

Results

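Immortalized fibroblasts of the rhesus macaque were set against 4 tissues of the same species, cerebral cortex, pancreas, testis and thymus. Fibroblasts are the connective tissue cells that make and remodel the extracellular matrix, and immortalized cells are cells that keep dividing in culture. The fibroblasts were chosen by their sample label and made up 4 of the 20 samples, 2 arrays of the Rhesus Macaque Genome Array (the rhesus platform) and 2 of the Human Genome U133 Plus 2.0 array (the human platform). Each tissue likewise had 4 samples. No treatment is named for any of the 5 sources, and labelling started from 5 ug of total RNA. The sources used here do not give the age or number of the animals, the tissue of origin of the line or how it was immortalized. Since the arrays of 1 source are labelled as technical replicates, the p-values reflect array-to-array spread only, for 1 RNA of a cultured line against 1 RNA of each tissue.

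In culture, fibroblasts attach to plastic through integrins, pull on it through contractile actin fibers and see serum, a wound-like stimulus. They are known for secreting fibrillar collagens, the enzymes that crosslink collagen, the metalloproteinases that cut it, and cytokines that call in immune cells. A tissue, by contrast, is a mixture of specialized cells with blood vessels, nerves, epithelium and resident immune cells, and cultured fibroblasts lack these.

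The deposited values are log2 levels, 1 for each probe set and array, and a gene was read from its brightest probe set with 1 gene symbol. The log2 difference is the fibroblast mean minus the mean of the 4 tissue means, within an platform. A gene was called where limma over all probe sets gave a Benjamini-Hochberg adjusted p below 0.05 and the difference was at least 1. Bacterial control transcripts that were not added to the RNA averaged 1.99 to 3.12 for the 42 probe sets of the rhesus platform and 2.14 to 3.12 for the 27 of the human platform. Levels in this range are called the floor here, and a log2 difference with 1 side at the floor is not an exact fold. Of all genes, 30.3% were at the floor in fibroblasts on the rhesus platform and 42.8% on the human platform.

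The fibroblast arrays repeated closely, with a pooled SD within the pair of 0.159 on the rhesus and 0.166 on the human platform. The pancreas pairs had the widest spread, 0.281 and 0.218. The log2 level of the actin 3′ control minus that of the 5′ control was 2.65 in fibroblasts and 4.58 in pancreas on the rhesus platform, and 2.29 and 2.40 on the human platform. For GAPDH the same quantity was 1.97 in fibroblasts and 2.77 in pancreas, and 0.495 and 1.31 on the human platform. The part of RNA quality in the differences from pancreas was not tested. The added hybridization controls averaged 9.69 in fibroblasts and 10.17 to 11.19 in the tissues on the rhesus platform, and 9.93 against 10.30 to 11.38 on the human platform. Scaling the arrays to these controls would raise the median fibroblast difference of all genes by 0.78 and 0.70, so every difference below is relative to the other genes on the arrays. Higher calls made up 54.7% of all calls on the rhesus and 58.3% on the human platform, and 83.9% and 86% after scaling to the added controls but 52.5% and 50.7% after quantile normalization.

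Of 14132 genes on the rhesus platform, 2544 (18%) were higher than the mean of the 4 tissues and 2104 (14.9%) were lower. Of 19775 genes on the human platform, 2237 (11.3%) were higher and 1602 (8.1%) were lower. Set against each tissue alone, 991 genes on the rhesus platform (7.01%) were above every tissue and 275 (1.95%) were below every tissue, and on the human platform 964 (4.87%) and 186 (0.941%). These shares are the background for every list count below. Without pancreas in the mean, 2397 genes were higher and 2344 lower on the rhesus platform, and 2034 and 1913 on the human platform. The median difference over all genes was 0.03 on the rhesus and 0 on the human platform.

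Of 11956 genes read on both platforms, 1343 (11.2%) were higher on both and 885 (7.4%) were lower on both, while 55 were called in opposite directions. The 2283 genes called on both were thus mostly called the same way, and the other calls were made on 1 platform only. Above every tissue on both platforms were 544 genes (4.55%), and below every tissue were 69 (0.577%). On the rhesus platform the share of genes higher in fibroblasts was 22.5% against cortex, 25% against pancreas, 16.6% against testis and 18% against thymus, and the share lower was 16.9%, 10.8%, 17.2% and 16%. On the human platform the shares higher were 13.2%, 16.8%, 10% and 11.1%, and the shares lower 10.8%, 5.97%, 9.49% and 9.15%. Pancreas had the most genes below fibroblasts and the fewest above them on both platforms.

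**Figure D1:**
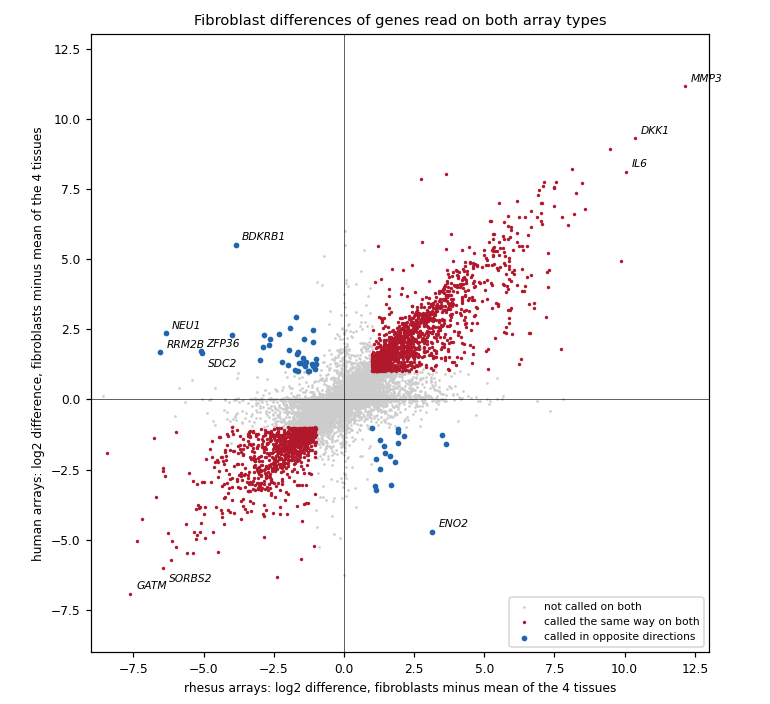
Log2 difference of fibroblasts from the mean of the 4 tissues on the rhesus platform (horizontal axis) and on the human platform (vertical axis), 1 point per gene read on both. Red genes were called the same way on both platforms, blue genes in opposite directions (55 genes), and MMP3 lies farthest to the upper right at 12.14 and 11.15.

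The 4 marker genes of the line, MMP3, DKK1, LOX and TAGLN, were picked with earlier results of these data known, so their levels are a description and no check of the label. MMP3 encodes stromelysin-1, a secreted metalloproteinase that cuts proteoglycans and fibronectin. On the rhesus platform MMP3 read 15.12 and 15.02 in fibroblasts, and the 8 tissue arrays ran from 2.66 to 3.42. On the human platform it read 13.49 and 13.51 against 2.31 to 2.40. The fibroblast arrays thus lay far above all tissue arrays, most of which were at the floor. The difference was 12.14 (standard error 0.0483) on the rhesus and 11.15 (0.0139) on the human platform.

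DKK1, a secreted antagonist of Wnt signaling, had the next largest difference called on both types. It read 13.07 and 13.10 in fibroblasts on the rhesus platform and 12.01 and 11.87 on the human platform, with every tissue array between 2.55 and 3.02. Its difference was 10.37 (standard error 0.0449) and 9.31 (0.0363). LOX, the lysyl oxidase that crosslinks collagen and elastin, read 11.47 and 11.14 on the rhesus platform, where the tissue arrays ran from 3.23 in cortex to 6.36 in testis. TAGLN, an actin-binding protein of contractile cells, read 13.17 and 13.19 on the rhesus and 13.20 and 13.34 on the human platform, and its highest tissue level was testis at 7.47 and 7.69. The differences were 6.53 and 5.46 for LOX and 7.05 and 6.98 for TAGLN, and neither gene was at the floor in testis.

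**Figure D2:**
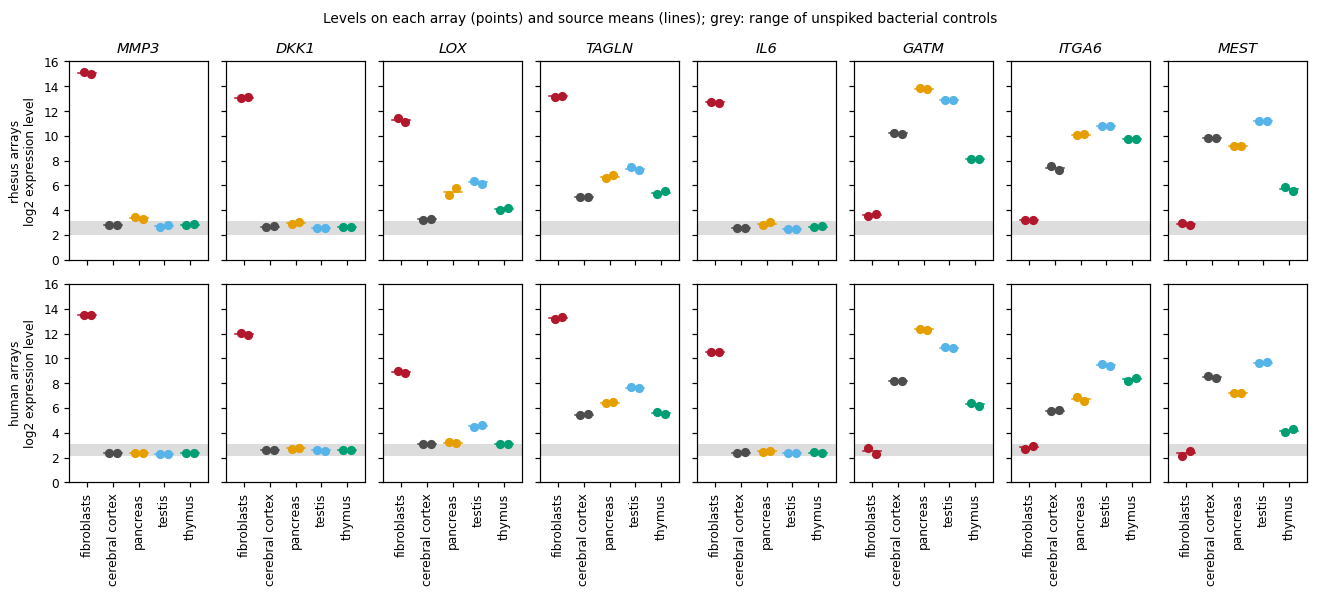
Log2 expression level (vertical axis) of 8 genes on each array, by source of RNA, with the rhesus platform in the upper row and the human platform in the lower row; points are arrays, lines are means of 2 arrays, and the grey band is the range of the unspiked bacterial controls. MMP3, DKK1, LOX, TAGLN and IL6 were highest in fibroblasts, whereas GATM, ITGA6 and MEST were lowest there.

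Broader markers of connective tissue cells moved with these 4. On a list of 16 such genes, 10 of 14 measured were higher on the rhesus and 12 of 16 on the human platform, and none was lower (list medians 3.39 and 3.06). FAP, a cell surface protease of activated fibroblasts, was among the 10 genes with the largest differences, ranked by the smaller of the rhesus and human values, at 7.48 (standard error 0.137) and 7.56 (0.188). S100A4, a calcium-binding protein long used as a fibroblast marker, was higher by 5.94 and 6.14. PRRX1, a transcription factor of mesenchyme, was higher by 6.60 and 3.40. TWIST2, a helix-loop-helix factor of mesenchyme and skin, was higher by 2.75 on the rhesus and by 7.84 on the human platform, with fibroblast arrays at 4.97 and 4.92 on the first and 10.56 and 10.68 on the second. The difference in TWIST2 between platforms was −5.10 (limma adjusted p = 1.06e-13).

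**Figure D3:**
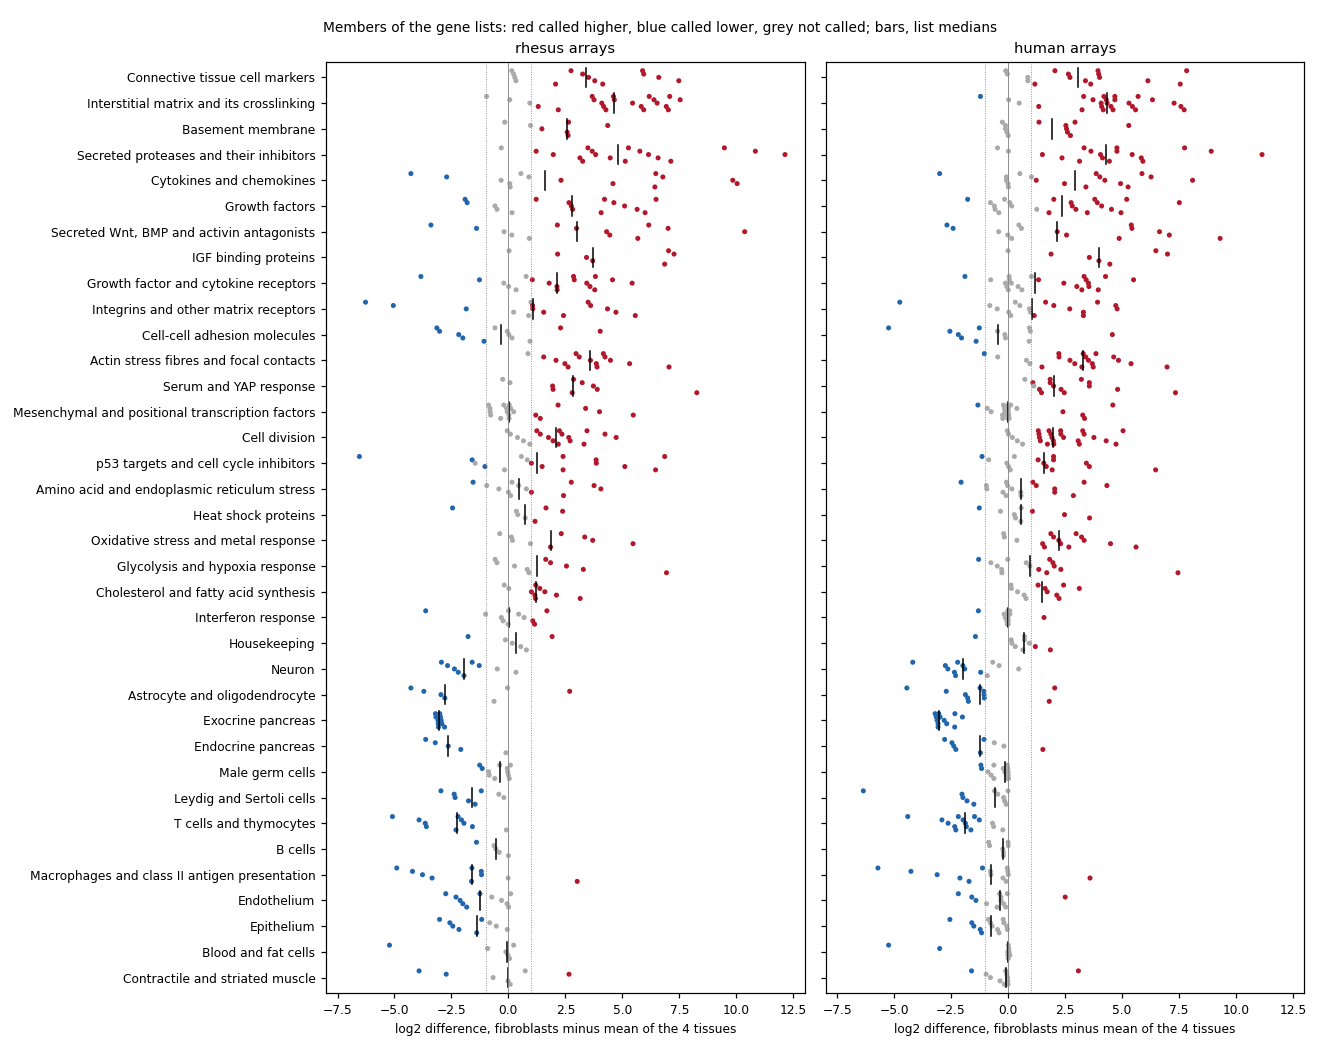
Log2 difference of fibroblasts from the mean of the 4 tissues (horizontal axis) for the members of 36 gene lists (rows), 1 point per gene and platform, red where called higher, blue where called lower and grey where not called, with the list median as a bar. Interstitial matrix, protease and actin lists lie to the right, with medians from 3.27 to 4.80. Lists of tissue cell types lie at or left of 0.

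Genes of the interstitial matrix and its crosslinking were nearly all higher in fibroblasts. Of 25 listed genes, 19 of 22 measured were higher on the rhesus platform and 22 of 25 on the human platform, 17 and 18 of them above every tissue (list medians 4.63 and 4.35). THBS2, a matricellular glycoprotein of the thrombospondin family, was higher by 7.54 (standard error 0.162) and 7.73 (0.145). TNC, a matrix protein of wounds and embryos, was higher by 7.08 and 7.59, with thymus as its next highest source. P4HA2, which hydroxylates prolines of collagen, was higher by 6.93 and 7.29, and LOXL2, a relative of LOX, by 7.02 and 6.34. ELN, the gene for elastin, was the only listed matrix gene called lower, by −1.21 on the human platform, where fibroblasts were at the floor (2.80 and 2.67) and pancreas read 5.32 and 5.33. On the rhesus platform ELN differed by 0.06 and was not called.

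CTHRC1, a secreted protein that carries a collagen triple helix repeat, was among the 10 largest differences. It read at least 12.32 on every fibroblast array and at most 6.22 on any tissue array, and was higher by 7.47 (standard error 0.0368) and 7.53 (0.251). Basement membrane genes, the sheet under epithelium and around vessels, moved less. Of 12 listed, 5 of 7 measured were higher on the rhesus and 7 of 12 on the human platform, but only 1 and 4 were above every tissue. NID1, which links laminin to collagen IV, was higher by 4.36 and 2.57, and LAMC1, a laminin chain, by 2.64 and 2.94. NID2 and COL4A2 were read on the human platform only, at differences of 5.30 and 2.74.

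Secreted proteases and their inhibitors had the highest list median on the rhesus platform. Of 18 measured on each platform, 17 were higher on the rhesus and 16 on the human platform, 14 of them above every tissue on each, and none was lower (medians 4.80 and 4.30). MMP1, the interstitial collagenase, read 12.92 and 12.89 in fibroblasts on the rhesus platform and 11.75 and 11.71 on the human platform. The tissues read MMP1 at 2.54 to 3.26 on the rhesus platform except for thymus at 5.42 and 5.33, and at 2.75 to 2.89 on the human platform. SERPINB2, an inhibitor of urokinase, was read on the rhesus platform only, at 14.23 and 14.21 against 2.82 to 4.16 in the tissues, a difference of 10.84 (standard error 0.135). CTSK, cathepsin K, which degrades collagen in acid, was higher by 7.13 and 7.75. Genes for making matrix and genes for cutting it were thus higher together.

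Cytokines and chemokines divided into a higher group and others that were lower or not called. Of 19 listed, 7 of 14 measured were higher on the rhesus platform and 11 of 18 on the human platform, and all of those called higher were above every tissue. IL6, an inflammatory cytokine, read 12.75 and 12.64 in fibroblasts on the rhesus platform and 10.50 and 10.52 on the human platform. Every tissue array read IL6 between 2.35 and 3.04, at the floor, and the difference was 10.04 (standard error 0.0685) and 8.10 (0.0153). CXCL8, interleukin-8, which attracts neutrophils, was higher by 9.85 on the rhesus and by 4.94 on the human platform. CXCL2, another neutrophil chemokine, and IL11 were read on the human platform only and were higher by 6.28 and 5.88.

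CXCL12, the chemokine that bone marrow and lymphoid stroma use to hold progenitor cells, went the other way. It read 2.42 and 2.42 in fibroblasts on the rhesus platform, below every tissue, with testis highest at 9.23 and 9.12. On the human platform fibroblasts read 5.85 and 5.75, which was close to cortex and below the other 3 tissues. The difference from the mean was −4.28 (standard error 0.253) and −3.004 (0.0472). IL33 was lower on the rhesus platform (−2.71) and at the floor in all sources on the human platform.

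Growth factor genes were mostly higher, and the insulin-like growth factors were not. Of 25 listed, 11 of 16 measured were higher on the rhesus and 13 of 22 on the human platform (medians 2.79 and 2.39). VEGFC, which drives lymphatic vessel growth, was higher by 7.52 on the human platform, and AREG, a ligand of the EGF receptor, by 6.48 on the rhesus platform. FGF2 was higher by 6.003 and 4.54, and STC1, a secreted glycoprotein, by 5.10 and 4.96. IGF1 was lower by −1.90 and −1.77, and IGF2, read on the rhesus platform only, by −1.81. Testis had the highest level of IGF1 (10.37 and 10.42 on the rhesus platform) and of IGF2 (8.72 and 8.58).

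The binding proteins of those factors showed the reverse. All but 1 of 7 IGF binding protein genes were higher on each platform, 5 of them above every tissue, and IGFBP1 was the exception at 0.03 and 0. IGFBP2 read 13.22 and 13.40 on the rhesus and 13.45 and 13.26 on the human platform, against a highest tissue array of 8.57 and 8.32 in testis. IGFBP3, which carries most circulating IGF, was higher by 7.27 and 3.99, IGFBP4 by 6.86 and 6.49 and IGFBP5 by 3.70 and 4.47.

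Secreted antagonists of Wnt, BMP and activin signaling held both extremes. Of 16 listed, 8 of 13 measured were higher on the rhesus and 8 of 15 on the human platform, and 2 were lower on each. Beside DKK1, FST (follistatin, which binds activin) was higher by 7.01 and 6.65, GREM1 (gremlin-1, which binds BMPs) by 6.16 and 7.08, and SFRP1, a soluble Wnt receptor, by 5.68 and 5.41. WIF1, a Wnt inhibitory factor, was lower by −3.40 (standard error 0.117) and −2.68 (0.481), with cortex highest at 10.37 and 10.35 on the rhesus platform. The WIF1 call on the human platform was lost without either fibroblast array. CHRD (chordin) was called lower on the rhesus platform (−1.40, adjusted p = 0.0307) and not on the human platform (−0.41), and its rhesus call was lost when any 1 of the cortex, testis or fibroblast arrays was left out. FRZB was below every tissue on the human platform, by −2.41.

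Receptors for growth factors and cytokines were higher in 12 of 18 on the rhesus and 11 of 22 on the human platform (medians 2.13 and 1.18), and 2 and 1 were lower. TNFRSF12A, the receptor of TWEAK, was higher by 5.43 and 3.43, and TNFRSF11B, the decoy receptor osteoprotegerin, by 4.57 and 3.53. OSMR, the oncostatin M receptor, was higher by 3.82 and 3.96, and IL1R1 by 4.28 on the human platform. LIFR, the receptor of leukemia inhibitory factor, was lower by −1.27 and −1.89, and the other lower call was BDKRB1 on the rhesus platform, described further down.

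Among integrins and other matrix receptors, the rhesus platform had 9 higher and 3 lower of 15, and the human platform 9 and 1 of 18 (medians 1.07 and 1.07). ITGB1, the shared beta chain of most matrix integrins, was higher by 4.72 and 3.31, and ITGA5, the fibronectin receptor chain, by 3.93 on the human platform. ITGA8 read 8.64 and 8.64 in fibroblasts on the rhesus platform, where cortex was next at 4.06 and 4.02, and was higher by 5.57 and 4.73. ITGA6, the laminin-binding chain of epithelia, read 3.24 and 3.23 in fibroblasts on the rhesus platform and 2.72 and 2.92 on the human platform. The lowest tissue arrays, in cortex, read ITGA6 at 7.22 and 5.75, and its difference was −6.27 (standard error 0.0844) and −4.75 (0.111). On the rhesus platform ITGB8 (−1.85) and SDC2 (−5.05) were also called lower.

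For contacts between cells, 2 of 12 genes were higher and 5 lower on the rhesus platform, and 1 was higher and 6 lower of 13 on the human platform (medians −0.32 and −0.46). CDH11, a cadherin of mesenchyme, was higher by 4.03 and 4.58, although its fibroblast levels on the rhesus platform (10.02 and 10.05) were only a little above testis (9.21 and 9.43) and cortex (8.44 and 8.32). CDH13 was higher by 2.29 on the rhesus platform. EPCAM, an adhesion molecule of epithelium, was lower by −3.02 and −2.55, and CADM1 by −1.07 and −5.24. The CADM1 call on the rhesus platform was lost under all 3 other scalings of the arrays.

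Genes of actin stress fibers and focal contacts were higher in 14 of 15 measured on the rhesus and 16 of 20 on the human platform, 12 and 13 of them above every tissue (medians 3.60 and 3.27). CAV1, the coat protein of caveolae, was higher by 5.32 (standard error 0.0462) and 5.40 (0.0653), TPM2, a tropomyosin, by 4.48 and 4.85, and MYL9, a myosin light chain, by 4.24 and 4.64. MYLK, the kinase of that light chain, was lower by −1.04 on the human platform, where testis read 11.26 and 11.25, and the call was lost without 1 fibroblast array (−0.99) or 1 thymus array (−0.95). Of genes of differentiated muscle, 1 of 7 and 1 of 11 were higher, and 2 and 1 were lower. Of all genes 18% and 11.3% were higher and 14.9% and 8.1% lower, so these few calls set the list little apart. SMTN, smoothelin, was higher by 2.66 and 3.09, while MYH11, the smooth muscle myosin heavy chain, was lower by −2.73 and −1.60. CKM, creatine kinase of muscle, was called lower on the rhesus platform (−3.92) and was at the floor in all sources on the human platform.

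Genes that answer to serum, stretch and the coactivator YAP were higher in 8 of 10 on the rhesus and 13 of 15 on the human platform, and none was lower (medians 2.83 and 2.00). CCN1, a matricellular YAP target, read 12.95 and 12.91 on the rhesus and 12.59 and 12.23 on the human platform. Testis was the highest tissue, reaching 7.07, and the difference was 8.27 (standard error 0.109) and 7.35 (0.124). CCN2, connective tissue growth factor, was higher by 3.90 and 3.57. PTGS2, cyclooxygenase-2, and FOSL1, a subunit of the AP-1 transcription factor, were read on the human platform only, with differences of 4.81 and 3.22.

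Of 25 listed transcription factors that give mesenchyme its type or position, 6 of 19 measured were higher on the rhesus platform and 4 of 21 on the human platform. At the floor in fibroblasts were 10 on each, against 30.3% and 42.8% of all genes, and the list medians were 0.03 and 0. TBX3, a T-box factor of limb and skin, was higher by 5.48 and 4.60, TBX15 by 4.00 and 3.36, FOXF1, a factor of visceral and lung mesenchyme, by 3.39 and 3.28, and SNAI2 by 2.41 on the human platform. HOXC6 was lower on the human platform (−1.32), where testis read 7.95 and 8.05 and no array of another source exceeded 3.33.

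Cell division genes were called higher against cortex, pancreas and testis, and mostly lower or not called against thymus. Against the mean of the 4 tissues, 13 of 18 measured were higher on the rhesus and 21 of 26 on the human platform, and none was lower (medians 2.08 and 1.96). Against cortex, 17 of 18 and 24 of 26 were higher, and against testis 10 and 15. Against thymus, where immature T cells divide, only 1 was higher on each platform, and 11 of 18 and 13 of 26 were lower (medians −1.13 and −1.05). RRM2, a subunit of ribonucleotide reductase, read 10.59 and 10.59 in fibroblasts on the human platform, close to thymus at 10.31 and 10.37 and above cortex at 2.46 and 2.02. TYMS, thymidylate synthase, likewise read 10.73 and 10.78 on the rhesus platform against 10.53 and 10.41 in thymus. CDC20, which activates the anaphase-promoting complex, was higher than the mean by 3.77 on the human platform.

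CCND1, cyclin D1, was the gene of that list above every tissue, thymus included. It read 9.88 and 10.18 on the rhesus and 10.87 and 10.58 on the human platform, and no tissue array exceeded 6.46 and 6.86. Its difference was 4.73 (standard error 0.207) and 4.74 (0.0807).

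**Figure D4:**
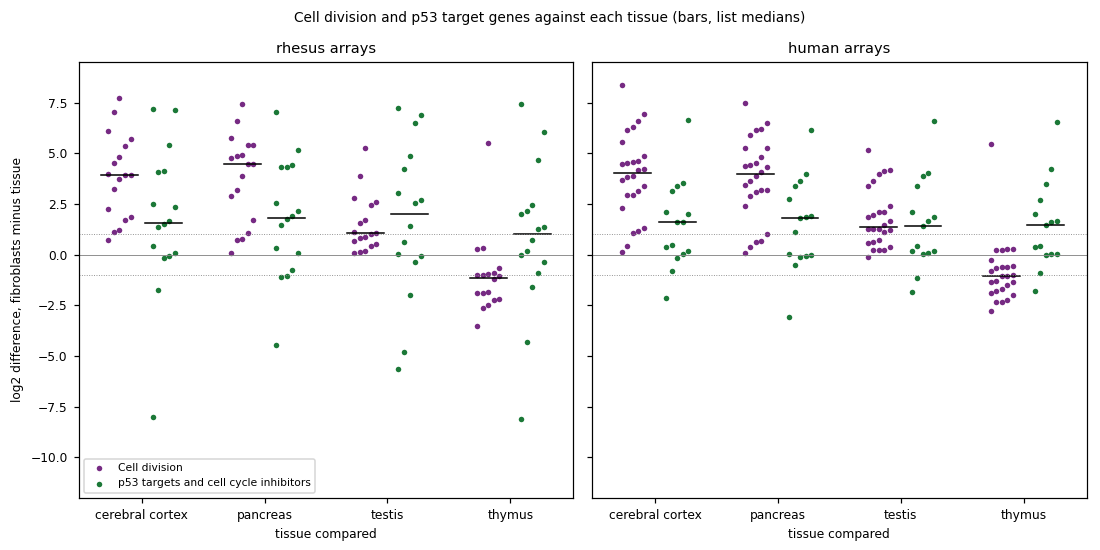
Log2 difference of fibroblasts from each tissue (vertical axis) for cell division genes (purple) and p53 targets and cell cycle inhibitors (green), by tissue (horizontal axis) and platform (panels), with list medians as bars and dotted lines at 1 and −1. Medians of cell division genes were 3.94 and 4.04 against cortex and −1.13 and −1.05 against thymus, while those of the p53 list were above 0 against all 4 tissues.

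The list of p53 targets and cell cycle inhibitors was mixed. Of 18 listed, 9 of 16 measured were higher and 3 lower on the rhesus platform, and 9 higher and 1 lower of 15 on the human platform (medians 1.25 and 1.57). CDKN1A, the inhibitor p21, read 11.59 and 11.62 on the rhesus and 9.35 and 9.30 on the human platform, above every tissue, and was higher by 5.11 (standard error 0.05) and 3.57 (0.0425). GDF15, a stress-induced cytokine, was higher by 6.46 and 6.48, and TP53I3 by 3.85 and 3.44. CDKN2A, the locus of p16 and p14ARF, read 10.40 and 9.86 in fibroblasts on the rhesus platform and at most 4.11 in any tissue array, a difference of 6.86 (0.127). On the human platform CDKN2A ran only from 5.36 to 5.74 over all 10 arrays and its difference was −0.05 (adjusted p = 0.821), while its most variable probe set there gave 2.10. The lower calls were RRM2B, SESN1 (−1.59) and FDXR (−1.03) on the rhesus platform and TP53INP1 (−1.14) on the human platform, and those of FDXR and TP53INP1 were lost without 1 fibroblast array (−0.88 and −0.95). The FDXR mean was 5.11 in fibroblasts and 4.67 to 5.05 in cortex, pancreas and thymus, so that call came from testis at 9.91. For TP53INP1 the fibroblast mean of 7.16 was above cortex (5.03) and below pancreas, testis and thymus (8.96 to 10.23).

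Other stress programs moved in part. Of genes of amino acid and endoplasmic reticulum stress, 5 of 13 and 7 of 17 were higher, and VLDLR, a lipoprotein receptor, was lower by −1.55 and −2.06. CEBPB, a factor of stress and inflammation, was higher by 4.06 and 4.34, TRIB3, a pseudokinase of the ATF4 response, by 3.76 and 3.34, and ATF3 by 2.76 and 2.87. The ATF3 call was lost on both platforms for the mean of its probe sets (0.74 and 0.95). The list medians were 0.45 and 0.56, against 0.03 and 0 for all genes. Heat shock genes were higher in 3 of 7 and 3 of 9, with HSPB1 higher by 3.58 on the human platform and BAG3 by 2.38 and 2.48. CRYAB, a small heat shock protein of brain and muscle, was lower by −2.45 and −1.26. Its fibroblast level on the human platform, 4.14 and 4.15, was within the range of pancreas, testis and thymus, so that call came from cortex at 9.17 and 9.04.

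Oxidative stress and metal genes were higher in 5 of 9 on the rhesus and 12 of 15 on the human platform, with none lower (medians 1.85 and 2.23). NQO1, a quinone reductase under control of NRF2, read 10.15 and 10.04 in fibroblasts on the human platform against 3.35 to 6.37 in the tissues. HMOX1, heme oxygenase-1, was higher by 4.50 on the human platform, SOD2, the mitochondrial superoxide dismutase, by 5.47 and 3.34, and MT2A, a metallothionein, by 3.70 and 3.23. Interferon genes, in contrast, had medians of 0.01 and −0.01. IFI44 was higher by 1.69 and 1.58, MX1 was below every tissue on the rhesus platform (−3.63) and at the floor in all sources on the human platform, and DDX58 was lower on the human platform (−1.30).

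Of genes of glycolysis and hypoxia, 5 of 10 and 7 of 15 were called higher, and of those of cholesterol and fatty acid synthesis 8 of 10 and 7 of 12, with none of the latter lower (medians 1.19 and 1.47). Against cortex alone the median of the glycolysis and hypoxia list was 0.19 and −0.02. ADM, adrenomedullin, a vasodilator induced by hypoxia, had the largest difference, 6.94 and 7.46. PKM, pyruvate kinase, was higher by 3.29 and 2.32, although 1 of its 3 rhesus probe sets was called lower. SLC2A1, the glucose transporter, was higher by 2.55 and 1.83 though close to its level in cortex. DHCR7, which catalyses the last step of cholesterol synthesis, was higher by 3.15 and 3.13. ANKRD37, a hypoxia target, was lower by −1.29 on the human platform, and by −0.92 and no longer called without 1 fibroblast array.

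Housekeeping genes were called in both directions. Of 6 and 10 measured, GAPDH was higher by 1.92 and 1.86 and HPRT1 lower by −1.77 and −1.43 on both platforms, and GUSB was higher by 1.20 on the human platform. ACTB differed by 0.54 and 0.94 and was not called. The median of the list was 1.71 and 1.54 against pancreas and between −0.35 and 0.26 against the other 3 tissues.

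The programs of the 4 tissues were near the floor in fibroblasts. In these bulk samples fewer cells of a type and less RNA per cell cannot be told apart. Neuronal genes were lower in 7 of 9 measured on the rhesus and 9 of 13 on the human platform, with none higher, and the list median was 2.41 and 3.33 in fibroblasts and 11.89 and 11.76 in cortex. NRGN, neurogranin of dendritic spines, read 2.15 and 2.15 in fibroblasts on the rhesus platform and 12.85 and 12.81 in cortex. Because it was at the floor in the other tissues too, its difference from the mean was only −2.67. Glial genes were lower in 4 of 7 and 9 of 11. SLC1A2, a glutamate transporter of astrocytes, was lower by −4.28 and −4.44, and SLC1A3, its relative, was higher by 2.69 and 2.05.

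SLC1A3 read 8.94 and 8.98 in fibroblasts on the rhesus platform, below cortex (12.96 and 12.97) and above the other tissues, of which none exceeded 5.11. CNP, a myelin enzyme, was called higher on the human platform (1.81), where fibroblasts and cortex had nearly equal means (8.47 and 8.51). Genes named for 1 cell type thus included a few that the fibroblasts also expressed.

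All measured genes of the exocrine pancreas were lower, 10 of 10 and 12 of 12, and 9 and 10 of them were at the floor. CPA1, carboxypeptidase A1, read 2.56 and 2.56 in fibroblasts on the rhesus platform and 15.39 and 15.40 in pancreas. Against the mean of the other 3 tissues CPA1 differed by 0.03 on each platform, since it was at the floor there as well. Endocrine genes were lower in 4 of 5 and 6 of 9. GCG, glucagon, was lower by −2.64 and −2.78 and INS, insulin, by −2.46 on the human platform. SST, somatostatin, was the exception on the human platform at 8.47 and 8.55 in fibroblasts, below cortex (10.46 and 10.38) and pancreas (11.73 and 11.74) and far above testis (2.65 and 2.63) and thymus (3.05 and 3.27).

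Germ cell genes were lower than the mean in 2 of 11 and 2 of 15, near the shares of all genes (14.9% and 8.1%). Against testis alone 6 of 11 and 6 of 15 were lower, where 17.2% and 9.49% of all genes were. The list median in testis itself was 5.35 and 3.44. ZPBP, a sperm protein, was lower by −1.15 and −1.19. Genes of Leydig and Sertoli cells were lower in 6 of 8 and 5 of 11, and nearly all were at the floor in fibroblasts (8 and 10 genes). SOX9, which marks Sertoli cells, glia and pancreatic ducts, was lower by −2.38 and −6.35, and INHA, the alpha chain of inhibin, by −2.96 and −2.02. T cell genes were lower in 9 of 10 and 12 of 15. PTPRC, CD45 of all leukocytes, read 2.97 and 3.18 in fibroblasts on the rhesus platform and 13.06 and 13.13 in thymus, with a difference of −5.09 and −4.40. DNTT, the terminal transferase of thymocytes, was lower by −3.65 and −2.63. B cell genes gave little contrast, with thymus medians of only 4.50 and 3.49 and fibroblast differences between −1.40 and 0.01.

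Lists for immune, vessel and lining cells held fewer lower calls on the human platform. Lower calls were fewer there over all genes too, 8.1% against 14.9% on the rhesus platform. Macrophage and class II genes were lower in 8 of 10 and 6 of 14. CD74, the class II invariant chain, was lower by −4.90 and −2.11, and HLA-DRA by −5.71 on the human platform. CD14, the lipopolysaccharide coreceptor, was above every tissue instead, at 8.48 and 8.31 on the rhesus and 6.91 and 6.57 on the human platform, where thymus was the highest tissue array (5.55 and 3.78). Endothelial genes were lower in 6 of 11 and 3 of 12, among them CDH5 (−2.004 and −2.18) and PECAM1 (−2.12 and −1.59). FLT1, a VEGF receptor, was called higher on the human platform (2.51), where fibroblasts had the highest level of the 5 sources, and was at the floor in all sources on the rhesus platform. Epithelial genes were lower in 6 of 9 and 5 of 14, with KRT8 at −2.17 and −1.59. Blood and fat cell genes were lower in 1 of 6 and 2 of 9, with medians of −0.07 and 0.01. They were FABP4, of fat cells, by −5.22 and −3.004, and HBB, of red cells, by −5.24 on the human platform, while HBB differed by −0.91 on the rhesus platform and was not called.

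**Figure D5:**
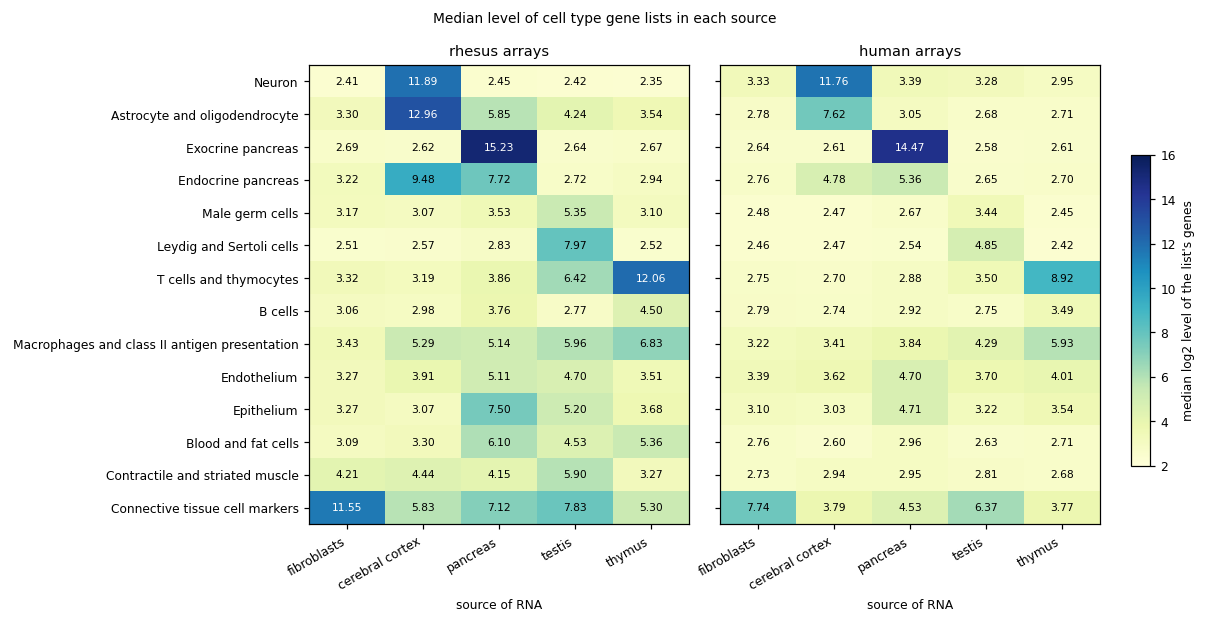
Median log2 level of 14 cell type gene lists (rows) in each source (columns), on the rhesus and the human platform, with the colour scale from 2 to 16. Fibroblasts were at or below 3.43 for all but 2 of the lists on the rhesus platform and all but 1 on the human platform, the connective tissue markers (11.55 and 7.74) being the highest.

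Genes below every tissue were few, and that rule leaves out genes that only 1 tissue expresses. The tissue with the highest level was counted over all genes lower than the mean on both platforms. It was not counted over all genes, so the counts that follow have no background share and are a description only. Of the 885 genes lower on both platforms, cortex had the highest level for 367 on the rhesus and 368 on the human platform, pancreas for 138 and 128, testis for 178 and 180 and thymus for 202 and 209, and the top tissue was the same on both platforms for 802. The 69 genes below every tissue were led by GATM, which makes the precursor of creatine. GATM read 3.56 and 3.71 in fibroblasts on the rhesus platform and 2.74 and 2.26 on the human platform, whereas no tissue array was below 8.15 and 6.19. Its difference was −7.62 (standard error 0.0479) and −6.92 (0.126).

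SORBS2, an adaptor of the actin cytoskeleton, followed at −6.46 and −6.02. The mean over all of its probe sets on the human platform differed by only −0.87. ITM2A, a membrane protein of differentiating cells, was lower by −6.18 and −5.72 and read highest in thymus (12.57 and 12.54 on the rhesus platform). MEST, an imprinted gene expressed from the paternal copy, read 2.94 and 2.80 in fibroblasts on the rhesus platform, with every tissue array at or above 5.57, and was lower by −6.12 and −5.05. ZNF711, a zinc finger gene of the X chromosome, was lower by −5.39 and −5.47, and SLAIN1, which binds microtubule ends, by −5.99 and −5.25. PLBD1, TMEM176B and B4GALT6, a lactosylceramide synthase, completed the 10 largest with ITGA6, at −5.27 and −4.97, −4.94 and −4.94, and −5.22 and −4.83. At the other end the 10 largest included KYNU, a kynurenine pathway enzyme (8.13 and 8.21), and STEAP1, a metalloreductase (8.47 and 7.69).

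Of the 55 genes called in opposite directions, 18 were higher on the rhesus and lower on the human platform and 37 the reverse. Rhesus probe sets were called both ways for 22 of the 55 and human probe sets for 4. The share of all genes with probe sets called both ways is not given here, so these counts have no background. BDKRB1, the B1 bradykinin receptor, had the largest, −3.84 on the rhesus and 5.51 on the human platform (difference −9.35). On the human platform it read 8.12 and 8.17 in fibroblasts and at most 2.71 elsewhere, and on the rhesus platform 2.47 and 2.98 in fibroblasts and 11.58 and 11.65 in testis. The mean of the 2 rhesus probe sets named BDKRB1 was higher in fibroblasts, by 1.49. These genes have no single direction in the data.

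NEU1, a lysosomal sialidase, went from −6.34 to 2.35 and RRM2B, a p53-induced subunit of ribonucleotide reductase, from −6.54 to 1.68. Each had rhesus probe sets called both ways, and neither lower call held for the mean of its rhesus probe sets (−0.05 and −0.73). ENO2, neuronal enolase, had 1 probe set on each platform. It was higher on the rhesus platform (3.15) and lower on the human platform (−4.71), where cortex read 11.87 and 11.72 and fibroblasts at most 2.92. ZFP36, which binds AU-rich mRNA, differed by −5.11 and 1.71, and SDC2, the proteoglycan syndecan-2, by −5.05 and 1.65.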

How the data were processed

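Rhesus RNA from 5 sources was read on 10 rhesus and 10 human arrays. The log2 levels used here were deposited by the authors as a table for each platform, and the submitters' processing notes name RMA. The study's methods state quantile normalization of probe intensities within each replicate pair, which would lower the spread behind the p-values. Whether it, or a joint normalization, went into the deposited tables, and the RMA version, are not stated. No further normalization was applied, and no column was dropped. Symbols were taken from the platform annotation. Probe sets with several symbols (361 rhesus, 1801 human) or none (27449 and 11721) were left out of genes, which left 14132 and 19775 genes.

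One mean per source was fitted within each platform by limma 3.58.1 (lmFit, eBayes) under R 4.3.3, over 52766 rhesus and 54613 human probe sets, controls aside. A call required an absolute difference of 1 or more with a Benjamini-Hochberg adjusted p under 0.05, and above or below every tissue means called so against each of the 4. The difference between platforms came from a limma fit of all 20 arrays, in which an offset of a table cancels but effects of separate normalization do not. Named were the 10 largest differences each way among genes called against every tissue on both platforms (ranked by the smaller of the differences), 4 marker genes, up to 4 members per list with the largest differences and those called against its direction or oppositely, any member of a list of at most 10, and the 5 largest opposite calls. The markers, the 36 lists and these rules were chosen with earlier results of these data known, and further genes named in the text were chosen after their values were seen. A planned search of promoters for AP-1 motifs was not made, since no sequence was used here. Alternatives were other scalings, probe set rules, filters and fits, the mean without pancreas, and leaving out each array. The fit was tested on simulated data with known changes. Precision is limited by having 2 arrays per source and platform.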

Additional observations from a re-analysis of the deposited data

Results flagged for a closer look

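Of the genes named above, 6 were called in opposite directions on the platforms, a choice that fixes a difference between the platforms. The fibroblast difference on the rhesus minus that on the human platform was −9.35 for BDKRB1, −8.70 for NEU1, −8.23 for RRM2B, 7.86 for ENO2, −6.82 for ZFP36 and −6.70 for SDC2. Which reading holds for these genes was not tested. With 2 arrays per source and platform, single arrays were not tested for being far from the rest.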

How the results depend on the processing

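Leaving out each array in turn kept every count of genes within 1.5 times its value. Over these fits the rhesus platform gave 2483 to 2574 genes higher than the mean of the tissues, 2040 to 2119 lower, 967 to 998 above every tissue and 267 to 282 below. The human platform gave 2081 to 2283, 1503 to 1598, 914 to 969 and 172 to 205, and both platforms 1254 to 1347, 828 to 892, 522 to 546 and 62 to 76. Scaling to the added hybridization controls gave, in the same order, 4953, 949, 1891 and 105 on the rhesus, 4451, 722, 1705 and 69 on the human and 2853, 379, 1025 and 30 on both. Without a minimum difference the counts were 4777, 4014, 1801 and 625, then 3889, 3202, 1610 and 424, and then 2475, 1743, 912 and 161. Reading a gene as the mean of all its probe sets gave 1015 genes lower and 91 below every tissue on the human platform, and 39 below every tissue on both. Replicate numbers were not taken as pairs, since deviations of same-numbered arrays of fibroblasts and tissues correlated only between −0.034 and 0.018, and with the number as a replicate block the genes higher and lower were 2541 and 2103 on the rhesus and 2228 and 1589 on the human platform.

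Of 6796 values of named genes under the alternatives, 86 lost the call, 34 gained one and 11 turned sign with a call before or after. The other 6665 kept their call or stayed uncalled, and a change of sign in uncalled values was not counted. Without pancreas in the mean, CPA1 (0.03), CPB1 (0.03), PNLIP (0.07) and GCG (0.20) turned on the rhesus platform, and CPA1 (0.03), CPB1 (0.01), PNLIP (0.03), GCG (0.03) and INS (0.02) on the human platform. Outside pancreas these genes were at the floor, except PNLIP in testis on the rhesus platform (3.17). BDKRB1 turned on the rhesus platform as the mean of its probe sets (1.49) and CDKN2A on the human platform in its most variable probe set (2.10). Reading a gene as the mean of all its probe sets also ended the calls of ITGB8 and HPRT1 on the rhesus platform and of ELN, IGF1, FRZB, LIFR, SLC2A1, IFI44, DDX58, HPRT1, GUSB, CNP, PECAM1, FLT1 and MYH11 on the human platform, at differences from −0.95 to 0.95. Scaling to the added hybridization controls ended 24 calls of named genes, all of them lower calls. Among them were LIFR (−0.49), SESN1 (−0.81) and VLDLR (−0.77) on the rhesus platform. CRYAB, KRT8, PECAM1, DDX58 and MYH11 lost the call on the human platform, and HPRT1 and ZPBP on both. Of 3024 counts of list members, 140 moved by more than 1.5 times. Signal near the floor limits differences of dim genes.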

Other observations

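The genes named here lie outside the lists and were chosen after their values were seen. Those that follow were above every tissue on both platforms. HAS2, which makes hyaluronan, was higher by 7.29 on the rhesus and 4.63 on the human platform, and TNFAIP6, which links proteins to hyaluronan, by 7.99 and 6.21. PTX3, a soluble pattern recognition protein, was higher by 7.06 and 6.26, IL24 by 7.79 and 6.50, and WNT5A, a noncanonical Wnt ligand, by 5.83 and 6.54. TFPI2, an inhibitor of serine proteases, was higher by 8.57 and 6.78. ABCB1, the drug efflux pump of the multidrug resistance family, was higher by 6.36 and 5.47, and read at most 3.92 in any tissue mean.

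Among transcription factors, TFAP2A was higher by 6.04 and 5.32, TFAP2C by 5.52 and 7.01, IRX3 by 5.89 and 4.65, SHOX2 by 5.26 and 4.14 and RUNX2, a factor of bone, by 4.55 and 4.44. EMX2, known from forebrain and urogenital development, was higher by 4.59 and 4.74, with cortex next (means 6.70 and 6.53).

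Of the 69 genes below every tissue, FGFR2, a fibroblast growth factor receptor, was lower by −5.63 and −4.44 and KIT, the stem cell factor receptor, by −3.70 and −3.14. ZBTB16 and TSC22D3, both known to be induced by glucocorticoids, were lower by −4.67 and −4.71 and by −3.67 and −3.62. SELENOP, the plasma selenium carrier, was lower by −4.26 and −3.50 and NFIB by −3.38 and −3.27.

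Probe sets with no gene symbol were left out above. Of 27449 on the rhesus platform, 1732 were called higher and 2964 lower in fibroblasts, and of 11721 on the human platform, 220 and 280. Over all probe sets tested, 5930 were higher and 6611 lower of 52766 on the rhesus platform. On the human platform 3890 were higher and 3048 lower of 54613.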
